A study of Mus musculus with 5 samples.

Results

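The genes described here are the transcription factor NRF2 (Nfe2l2), its inhibitor KEAP1 (Keap1) and 8 antioxidant and detoxification genes known as NRF2 targets, namely Nqo1, Gclc, Gclm, Txnrd1, Srxn1, Hmox1, Gsr and Ephx1. They were taken by gene symbol, and all 10 were found among the 55397 Ensembl genes of the deposited table and passed the filter on low values that left 17105 genes for testing. The libraries were made from tumour nodules of the liver. The mice were C57BL/6N females that at 8 weeks of age had plasmids injected through the tail vein, which hepatocytes take up. In all of them a Sleeping Beauty transposase inserted Akt and the NOTCH1 intracellular domain (NICD), each behind an EF1a promoter, and this pair gives tumours with glandular, bile duct-like features (cholangiocarcinoma, CCA). The 3 Prox1 OE tumours also received FLAG-tagged mouse Prox1 with GFP behind a doxycycline-responsive promoter, and the 2 Control tumours received the same plasmid with GFP and no Prox1. Doxycycline (6.25% in the diet) was given from day 21, so that late Prox1 overexpression ran from week 3 to week 4 and Control tumours carried the same drivers, reverse transactivator and treatment. The labels call the cells transformed hepatocytes, but the tissue was a bulk nodule, taken when overexpression had lasted a week or at a humane endpoint. They do not tie collection times to samples and do not say whether replicates came from separate mice, so p-values measure the spread between these samples.

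NRF2 is a leucine zipper transcription factor that switches on genes for glutathione synthesis, thiol reduction and removal of reactive compounds. In unstressed cells KEAP1, an adaptor of the CUL3 ubiquitin ligase, holds NRF2 and sends it for degradation, and oxidants or electrophiles that modify KEAP1 let NRF2 accumulate, pair with a small MAF protein and bind antioxidant response elements. NRF2 is controlled mainly as a protein, which RNA sequencing does not measure. In liver these targets protect hepatocytes from drugs, bile acids and oxidants, and NQO1 is the standard readout of the pathway.

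Library totals ran from 48740863 to 56629477 reads. Prox1, the overexpressed gene, was at 4153 and 4664 normalised counts in Control and at 48090, 11113 and 8231 in Prox1 OE. The groups did not overlap and Prox1 OE replicate 1 stood far above the rest, with a log2 fold change of 1.90 that was not called (limma adjusted p 0.0607). Over the alternatives it ran from 1.12 to 2.39 (adjusted p 0.00188 to 0.208), and Prox1 was called higher by edgeR (0.0465), under the replicate block, without Prox1 OE replicate 1 (1.12, adjusted p 0.00551) and without Prox1 OE replicate 3 (2.39, adjusted p 0.0325). Tissue identity was read from marker genes, to be set beside the 17.1% of all genes called higher and 16.2% called lower. Hepatocyte markers were present in every library and 8 of 10 were called higher in Prox1 OE, with a summed level of 805716 to 1292470 normalised counts in Control and 2620680 to 4020510 in Prox1 OE. That sum was mostly Alb, at 480678 and 798691 in Control. Alb lost the call without a filter, with a pseudocount of 10 and when any single library was left out. Of 8 cholangiocyte markers, 7 were called lower, falling by 0.81 to 2.50 on the log2 scale. Their summed level (758178 to 827318 in Control, 523581 to 707505 in Prox1 OE) was mostly Spp1, the marker that was not called (-0.34), at 784749 and 712010 in Control. Macrophage markers summed to 30333 to 34539 in Control and 46524 to 67051 in Prox1 OE, with 4 of 10 called higher. Red blood cell markers summed to 4944 to 7502 and 8412 to 17952, fibroblast and stellate cell markers to 123275 to 128564 and 68249 to 80752, and endothelial markers to 7710 to 9943 and 9676 to 14007. Of these lists 1 of 6, 4 of 7 and 2 of 6 tested genes were called, the fibroblast and stellate cell genes lower and the others higher, so that the red blood cell list was near the share of all genes. The endothelial calls were Stab2 (1.04) and Clec4g (2.61), while Pecam1 (-0.27), Cdh5 (-0.33) and Lyve1 (-0.53) had negative values and the list median was 0.09. Under the replicate block Lyve1 was called lower (-0.79, limma adjusted p 0.0288). Scaled to the total count, Pecam1, Cdh5 and Lyve1 were called lower, as were 40.0% of all genes. Without Control replicate 1, where 5.21% of all genes were called higher and 3.63% lower, the calls fell to 1 of 10 for hepatocyte markers (Hnf4a), 2 of 10 for macrophage markers, 2 of 7 for fibroblast and stellate cell markers and 1 of 6 for endothelial markers. Hepatocyte calls were also 5 without Prox1 OE replicate 2. Macrophage calls were 2 in limma without trend, 7 by DESeq2 and 8 under the replicate block. For red blood cell markers there were 5 by DESeq2, 2 without Prox1 OE replicate 2 and 0 without Control replicate 2. No gene of these lists was at 0 in every library. A change in the share of a cell type and a change of RNA per cell cannot be told apart in bulk tissue, and the part of these shifts in the results that follow was not tested.

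Of the 10 genes, 4 were higher in Prox1 OE tumours: Nqo1, Srxn1, Ephx1 and Gclc, by 1.88, 1.53, 1.01 and 0.95 on the log2 scale. Neither Nfe2l2 nor Keap1 was called, and Gclm, Txnrd1, Gsr and Hmox1 did not pass the threshold. The test was limma on log2(normalised count + 1), with Benjamini-Hochberg adjustment over all 17105 genes and a gene called at an adjusted p under 0.05. The same test called 33.3% of all genes, 17.1% higher and 16.2% lower, so that 4 of 10 called was near the share of all genes and 4 of 10 called higher was above the 17.1%. The median log2 fold change of the 10 genes was 0.25, against -0.02 over all genes tested. No member was called lower by limma, with 1 lower at an unadjusted p under 0.05 (Hmox1). On whole reads recovered from the table, edgeR called the same 4 genes and 33.7% of all genes, and DESeq2 called these 4 and Hmox1 and 38.9% of all genes. The groups did not overlap for 9 of the 10 genes, all but Gsr, and for 63.3% of all genes.

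**Figure D1:**
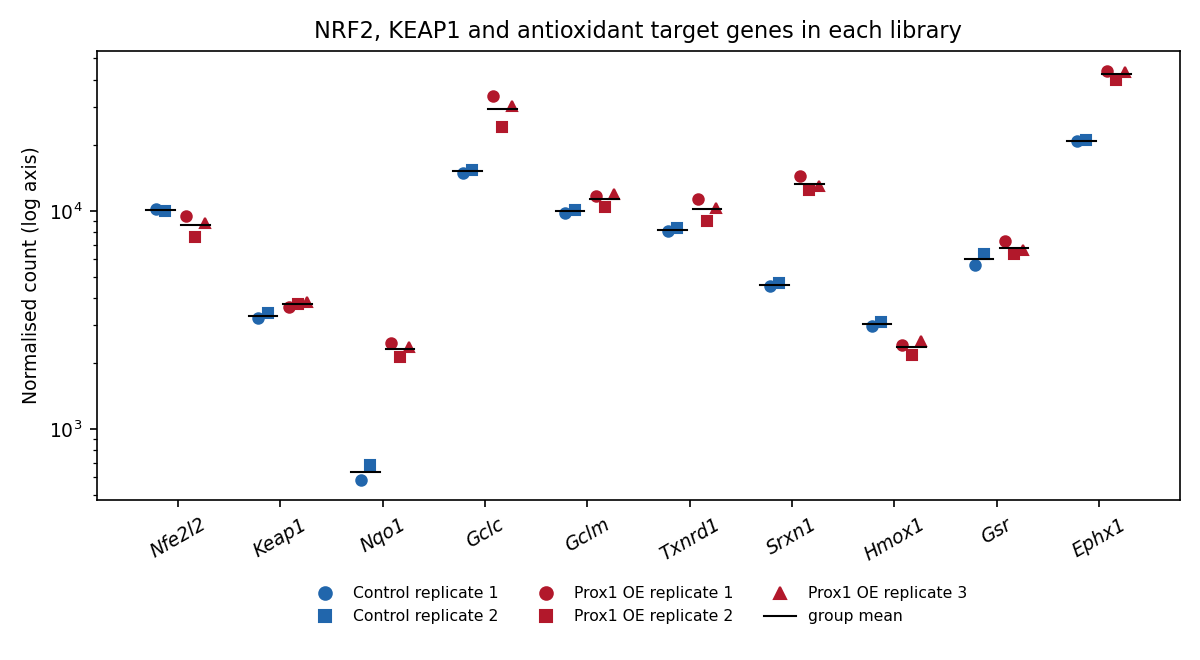
Normalised counts (log axis) of the 10 genes in each library, with Control in blue, Prox1 OE in red, a symbol for each replicate and a black line at the group mean. Nqo1, Srxn1, Ephx1 and Gclc sit well above Control in all 3 Prox1 OE libraries, while the other genes differ by small steps, Nfe2l2 and Hmox1 downward.

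The mRNA of NRF2 itself did not pass the test's threshold. Nfe2l2 (ENSMUSG00000015839, mm10 chromosome 2, 75675513 to 75704641, minus strand) had 10176 and 10013 normalised counts in Control and 9490, 7606 and 8769 in Prox1 OE replicates 1, 2 and 3. All 3 Prox1 OE libraries were below both Control libraries, by a small margin in replicate 1. On the log2 scale Nfe2l2 differed by -0.23 (SE 0.13, 95% interval -0.54 to 0.07, limma adjusted p 0.204). Keap1 (ENSMUSG00000003308, chromosome 9, 21229730 to 21239361, minus strand) had 3220 and 3391 in Control and 3607, 3750 and 3832 in Prox1 OE. Its Prox1 OE values were all above Control, and the log2 fold change of 0.17 (95% interval -0.07 to 0.42) was not called (limma adjusted p 0.233). Within a library the Nfe2l2 count was 3.16 and 2.95 times the Keap1 count in Control and 2.63, 2.03 and 2.29 times in Prox1 OE. This ratio of activator to inhibitor mRNA, which no scaling affects, was lower in all 3 Prox1 OE libraries by 0.41 on the log2 scale, with an exact two-sided permutation p of 0.2, where 0.1 is the smallest that 2 and 3 libraries allow.

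Of the reductases, Nqo1 and Srxn1 were called higher, while Txnrd1 and Gsr were not called. Nqo1 encodes NAD(P)H quinone dehydrogenase, which reduces quinones to less reactive products. It (ENSMUSG00000003849, chromosome 8, 107388225 to 107403206, minus strand) had 584 and 682 normalised counts in Control and 2483, 2145 and 2364 in Prox1 OE. The lowest Prox1 OE value was 3.15 times the highest Control value, and the spread within each group was small beside the gap. Means were 633 ± 68.9 (SD, n = 2) and 2331 ± 171 (SD, n = 3), a 3.68-fold rise (log2 fold change 1.88, SE 0.13, limma adjusted p 0.00138).

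Srxn1 encodes sulfiredoxin, which repairs overoxidised peroxiredoxins. This gene (ENSMUSG00000032802, chromosome 2, 152105516 to 152111376, plus strand) went from 4528 and 4658 normalised counts in Control to 14385, 12465 and 12990 in Prox1 OE. The groups were far apart, with the lowest Prox1 OE library at 2.68 times the highest Control library. Srxn1 rose by 1.53 on the log2 scale (SE 0.12, limma adjusted p 0.00142).

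Txnrd1 encodes cytosolic thioredoxin reductase, which keeps thioredoxin reduced. Txnrd1 (ENSMUSG00000020250, chromosome 10, 82833951 to 82897712, plus strand) had 8069 and 8343 normalised counts in Control and 11279, 9014 and 10271 in Prox1 OE. All Prox1 OE values lay above Control, replicate 2 by little. The log2 fold change of 0.31 (95% interval -0.002 to 0.61) was not called (limma adjusted p 0.111). Gsr, glutathione reductase (ENSMUSG00000031584, chromosome 8, 33652523 to 33698163, plus strand), had 5623 and 6349 in Control and 7269, 6342 and 6585 in Prox1 OE. Of the 10 genes it alone had overlapping groups, with a log2 fold change of 0.17 (95% interval -0.11 to 0.45, limma adjusted p 0.311).

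Glutathione synthesis starts with glutamate-cysteine ligase, made of a catalytic subunit (Gclc) and a modifier subunit (Gclm), and of these only Gclc was called. Gclc (ENSMUSG00000032350, chromosome 9, 77754535 to 77794485, plus strand) had 14904 and 15405 normalised counts in Control and 33690, 24299 and 30383 in Prox1 OE. All Prox1 OE libraries were above Control, the lowest at 1.58 times the highest Control value, and they varied more among themselves than the Control libraries did. Control averaged 15155 ± 354 (SD, n = 2) and Prox1 OE 29457 ± 4763 (SD, n = 3), a rise of 0.95 on the log2 scale (SE 0.17, limma adjusted p 0.00656). The call was lost without Control replicate 1 (log2 fold change 0.92, limma adjusted p 0.0687) and held without Control replicate 2 (0.97, limma adjusted p 0.0474).

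Gclm (ENSMUSG00000028124, chromosome 3, 122245557 to 122270732, plus strand) had 9790 and 10097 in Control and 11659, 10433 and 11924 in Prox1 OE. Its groups were apart by only 1.03 times at the nearest libraries, and the log2 fold change of 0.19 (95% interval -0.09 to 0.47) was not called (limma adjusted p 0.259). In a given library the Gclc count was 1.52 and 1.53 times the Gclm count in Control and 2.89, 2.33 and 2.55 times in Prox1 OE. The ratio rose in 3 of 3 Prox1 OE libraries, by 0.76 on the log2 scale (Control mean 0.61, SD 0.002, and Prox1 OE mean 1.37, SD 0.16). Its exact two-sided permutation p was 0.1, the smallest that 2 and 3 libraries allow, so that this test could not pass the threshold. A noncoding gene on the other strand and a pseudogene overlap Gclm. The kit kept strand, but whether the counting used it was not stated, and the same holds for Keap1 and Txnrd1, which also overlap other annotated genes, and Ephx1, which overlaps a pseudogene.

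Ephx1 and Hmox1 belong to detoxification and heme breakdown, and only Ephx1 was called. Ephx1, microsomal epoxide hydrolase (ENSMUSG00000038776, chromosome 1, 180976210 to 181020904, minus strand), had 20856 and 21181 normalised counts in Control and 43703, 39939 and 43145 in Prox1 OE. It rose 2.01-fold with little spread, the lowest Prox1 OE library being at 1.89 times the highest Control library. On the log2 scale the rise was 1.01 (SE 0.14, limma adjusted p 0.00314). Ephx1 is also a known target of the xenobiotic receptors CAR and PXR, and all 10 genes of a list of these receptors and their targets were called higher, where 17.1% of all genes were, with a median log2 fold change of 2.43. Without Control replicate 1, Nr1i3 (limma adjusted p 0.126) and Por (0.107) lost the call, as they did without Prox1 OE replicate 2 (0.0756 and 0.053), and Nr1i3 also in limma without trend (0.06). In that list Cyp2b10, the standard CAR readout, averaged 89.3 normalised counts over the Control libraries (SD 74.0) and 1005 over the Prox1 OE libraries (SD 514), with a log2 fold change of 3.66 that ran from 2.70 to 4.61 over the alternatives. Whether these receptors had a part in the Ephx1 rise was not tested.

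Hmox1, heme oxygenase 1 (ENSMUSG00000005413, chromosome 8, 75093621 to 75100589, plus strand), is strongly expressed by macrophages that clear red cells as well as being an NRF2 target. It had 2960 and 3090 normalised counts in Control and 2430, 2191 and 2520 in Prox1 OE. All Prox1 OE values were below both Control values. The summed macrophage and red blood cell markers were higher in Prox1 OE, and their part in the Hmox1 values was not tested. The log2 fold change was -0.35 (SE 0.11, 95% interval before adjustment -0.62 to -0.08) and the limma adjusted p 0.0521 just missed the threshold. Over the alternatives its adjusted p ran from 0.0025 to 0.279, and it was called lower by DESeq2 (0.033), without Prox1 OE replicate 1 (0.0387), when only genes with a mean of at least 50 were tested (0.0464), and under scaling by the total count.

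**Figure D2:**
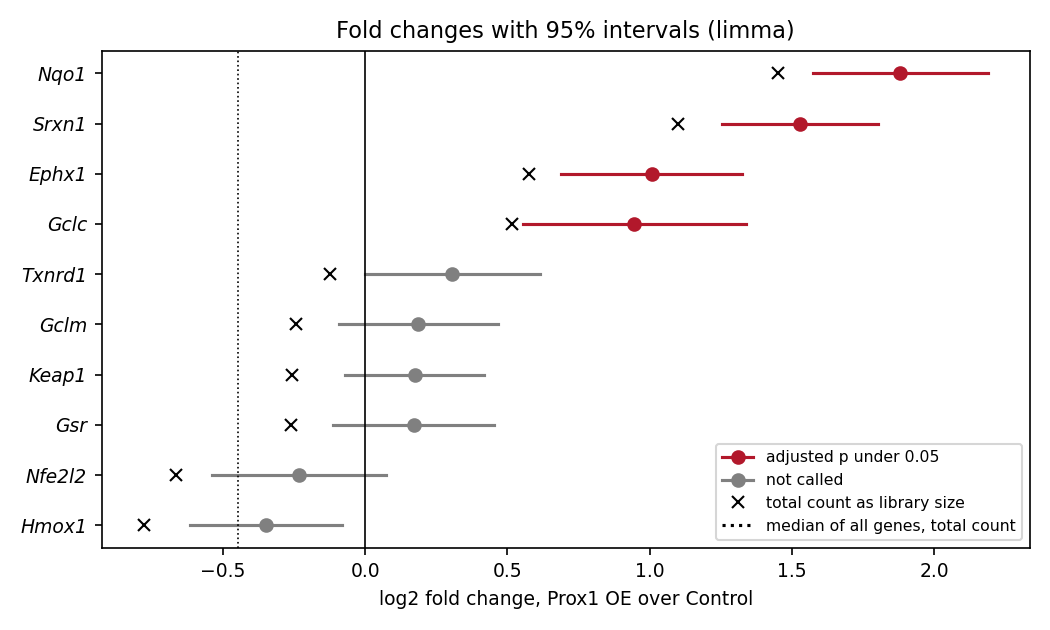
Log2 fold change of Prox1 OE over Control for each gene with its 95% interval from limma, called genes in red and the others in grey. Crosses give the value after scaling to the total count and the dotted line the median of all genes under that scaling (-0.45), so that Nqo1, Srxn1, Ephx1 and Gclc lie right of zero under both scalings while Txnrd1, Gclm, Keap1 and Gsr cross it.

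The sign of the small changes depended on how libraries were scaled. When each library was scaled to its total count, the median over all genes was -0.45 in place of -0.02. Nqo1, Srxn1, Ephx1 and Gclc were then still called higher (8.59% of all genes were), while Nfe2l2 (-0.66) and Hmox1 (-0.78) were called lower, as were 40.0% of all genes. Txnrd1, Gclm, Keap1 and Gsr took negative values that were not called. Relative to the median of all genes the values were alike under both scalings, for example -0.22 for Nfe2l2, -0.33 for Hmox1 and 0.20 for Gclm.

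Scaled to exon length, the levels of the 10 genes spanned a wide range and their order changed. In Control tumours Ephx1 was the highest, at 10779 normalised counts per kb, followed by Gclc at 4024 and Nfe2l2 at 2659. Nqo1 was the lowest at 407 per kb, under Keap1 at 704, and no neighbouring genes in this order had overlapping ranges. In Prox1 OE tumours Ephx1 (21673) and Gclc (7822) kept the lead and Srxn1 came next at 4709, up from the sixth place. Nqo1 rose to 1501 per kb and lay among Gclm, Txnrd1 and Hmox1, from which it could be told apart only in part: the ranges of Nqo1, Txnrd1 and Hmox1 overlapped one another, and so did those of Gsr and Nfe2l2. Hmox1 moved from the fifth to the ninth place.

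**Figure D3:**
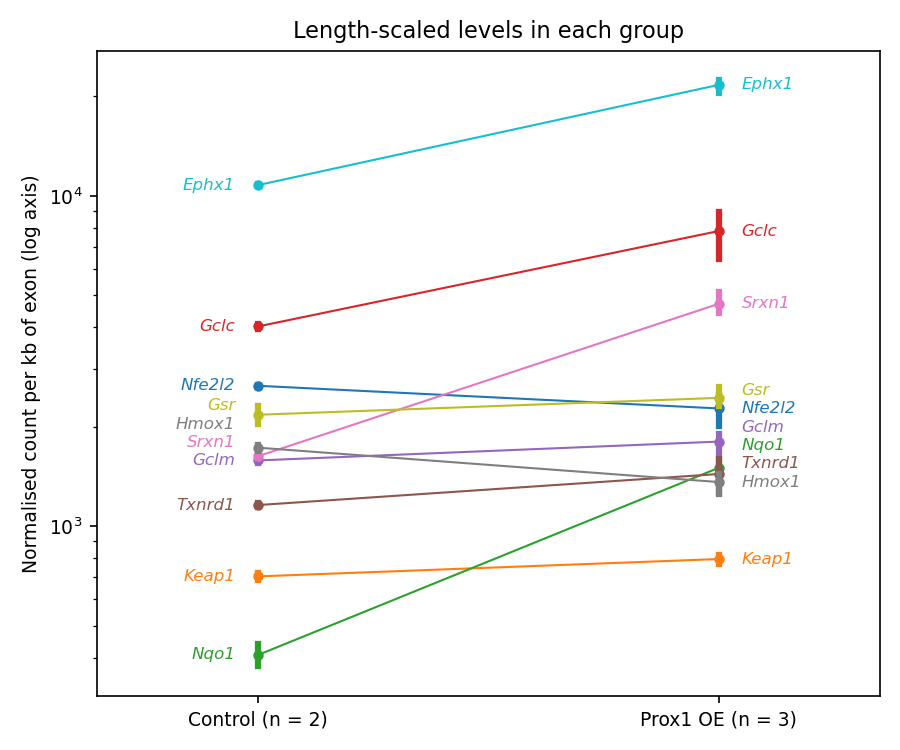
Mean normalised count per kb of exon (log axis) of each gene in Control (n = 2) and Prox1 OE (n = 3), with thick bars from the lowest to the highest library and gene labels shifted to avoid overlap. Ephx1 and Gclc lead in both groups, Srxn1 moves up to follow them and Nqo1 leaves the last place, from 407 to 1501 per kb.

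Among Prox1 OE libraries, the 4 called genes shared an order. Nqo1, Srxn1, Ephx1 and Gclc were all highest in replicate 1 and lowest in replicate 2, an order found in 13.1% of the 2933 genes called higher. Prox1 itself was highest in replicate 1 but lowest in replicate 3. With 3 libraries this is a description of these tumours.

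Genes most like Nqo1 were sought among 12970 genes with a mean of at least 100, by the root mean square difference of centred log2 values over the 5 libraries. The nearest were Gstm4 (0.070), C4a (0.071) and Reep6 (0.071). Gstm4, a glutathione S-transferase with close copies, had 2551 and 2828 normalised counts in Control and 10055, 8689 and 10851 in Prox1 OE, a log2 fold change of 1.87. C4a and Reep6 had log2 fold changes of 1.92 and 1.83, and C4a is a close copy of another complement gene, so that its counts and those of Gstm4 are uncertain where reads were shared.

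NRF2 and a small MAF protein bind a core of letters, TGACNNNGC, which was searched on both strands of promoter windows running from 250 bases before to 50 after each RefSeq start (GRCm38.p6, the sequence of mm10). Of the 10 genes, 7 had a window, and Gclc, Hmox1 and Gsr had none in the table. The core occurred in 4 of their 9 windows (44.4%), those of Nfe2l2, Srxn1, Gclm and a start of Txnrd1, against 12.4% of all 32851 windows. The sites are shown because they fell in the promoters of Srxn1, which rose, and of 3 genes that were not called. Each is read 5′ to 3′ on the strand that carries the core, in capitals, with 10 flanking bases.
Srxn1, chr2:152105542-152105570, minus strand: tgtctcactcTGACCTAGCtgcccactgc
Gclm, chr3:122245413-122245441, minus strand: tcgtgagagtTGACGGTGCgcccgggagc
Txnrd1, chr10:82859104-82859132, minus strand: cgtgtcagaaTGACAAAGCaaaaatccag
Nfe2l2, chr2:75704885-75704913, minus strand: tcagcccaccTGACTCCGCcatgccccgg

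Counted from the start, the core lay at -134 to -126 in Gclm, -92 to -84 in Txnrd1, -240 to -232 in Nfe2l2 and 29 to 37 in Srxn1. Nqo1 and Ephx1, which rose, and Keap1, which was not called, held no such letters in their windows. The 250 bases before the starts of Gclm and Nqo1 are given to show these contrasting cases, on the strand of the gene and with the core, here read from the other strand, in capitals.
Gclm, chr3:122245307-122245556, plus strand: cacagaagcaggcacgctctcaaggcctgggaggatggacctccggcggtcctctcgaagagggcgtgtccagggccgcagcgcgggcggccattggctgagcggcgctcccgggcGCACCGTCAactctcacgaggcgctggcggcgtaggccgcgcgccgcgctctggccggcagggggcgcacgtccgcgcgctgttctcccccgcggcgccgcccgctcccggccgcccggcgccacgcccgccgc
Nqo1, chr8:107403206-107403455, minus strand: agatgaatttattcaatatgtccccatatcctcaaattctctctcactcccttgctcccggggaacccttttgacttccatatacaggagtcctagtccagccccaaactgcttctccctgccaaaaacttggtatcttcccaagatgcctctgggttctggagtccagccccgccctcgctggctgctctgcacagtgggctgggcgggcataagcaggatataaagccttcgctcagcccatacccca

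The Gclm stretch was 78.4% G or C and that of Nqo1 53.2%. A match describes these letters, not binding, and elements further from the start were not searched. Among the genes of other lists, the core was in the windows of 6 of 22 further NRF2 targets, 3 of 11 partners and regulators (Maff, Mafg and Mafk) and 1 of 14 other antioxidant enzymes (Sod1), against 14.0% of all genes with a window.

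Of 25 further genes known as NRF2 targets, 19 were called higher and 2 lower by limma, where 17.1% and 16.2% of all genes were, and their median log2 fold change was 0.88. Without Control replicate 1, 7 were called higher, beside 5.21% of all genes, and without Control replicate 2, 13, beside 9.08% of all genes, where the lone Control library is assumed to vary like the others. Scaled to the total count, 14 were called higher and 3 lower, beside 8.59% and 40.0% of all genes.

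Glutathione S-transferases, which join glutathione to reactive compounds, were called higher in 5 of 5 cases, beside 17.1% of all genes. Without Control replicate 1, Gstm1 (1.88, limma adjusted p 0.06) and Gstp1 (0.87, limma adjusted p 0.0558) were not called. Gstm3 averaged 31022 normalised counts in Control (SD 12185) and 187648 in Prox1 OE (SD 40328), and its log2 fold change was 2.63 (limma adjusted p 0.00247). Gsta1 changed by 2.56 and Gstm1 by 2.13, Gsta4 by 1.21 and Gstp1 by 0.93. These genes have close copies and their counts are uncertain if reads were split among them. Thioredoxin, the substrate of TXNRD1, and the peroxiredoxins of this list were called higher in 3 of 3 cases, with log2 fold changes of 0.70 for Txn1, 0.79 for Prdx1 and 0.92 for Prdx6. All 3 lost the call without Control replicate 1 (limma adjusted p 0.1, 0.156 and 0.0792), and Txn1 and Prdx1 also without Control replicate 2 and under scaling to the total count, and Txn1 without Prox1 OE replicate 2 (0.0525). Of the peroxiredoxins counted with the other antioxidant enzymes, Prdx3 (0.97) and Prdx5 (1.10) were called higher and Prdx2 (0.22) and Prdx4 (0.41) were not called.

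Ferritin genes and Blvrb rose, whereas Hmox1 was not called. Ftl1 and Fth1, the ferritin light and heavy chains, changed by 1.68 and 0.84, and Blvrb, a flavin and biliverdin reductase, by 1.44, with 3 of 3 called higher, beside 17.1% of all genes. Without Control replicate 1, Ftl1 (limma adjusted p 0.0714) and Fth1 (0.238) lost the call, and Fth1 also without Control replicate 2 (0.168), without Prox1 OE replicate 2 (0.0589) and under scaling to the total count (0.0697). The ferritin genes have processed copies elsewhere in the genome. Export pumps for conjugates were called higher, Abcc2 by 1.05, Abcc3 by 1.04 and Abcc4 by 0.73. Abcc4 lost the call without Control replicate 1 (limma adjusted p 0.108), without Control replicate 2 (0.105) and under scaling to the total count (0.229), and Abcc2 without Control replicate 1 (0.06). Slc7a11, the cystine importer, was near the filter at 35 to 42 normalised counts in Control and 18 to 37 in Prox1 OE and was not called. Aox1 and Cbr3 changed by 1.64 and 1.00, and Sqstm1, an autophagy receptor that also binds KEAP1, by 0.88. Cbr3 lost the call without Control replicate 2 (limma adjusted p 0.0603) and Sqstm1 without Control replicate 1 (0.0762).

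Genes of the pentose phosphate pathway and malic enzyme (Me1) had 2 of 5 called higher, 1 lower and 2 not called. Of all genes, 17.1% were called higher and 16.2% lower. G6pdx, Pgd and Me1 make NADPH, which NQO1, GSR and TXNRD1 consume, while Taldo1 and Tkt do not make it. G6pdx, the first enzyme of the pentose phosphate pathway, averaged 2652 normalised counts in Control (SD 84.2) and 1843 in Prox1 OE (SD 289), a difference of -0.54 on the log2 scale (limma adjusted p 0.0289, 0.00399 to 0.186 over the alternatives). Pgd, a later enzyme of the same branch, rose by 0.86 (limma adjusted p 0.00549, up to 0.064 over the alternatives), and Taldo1 by 0.45 (limma adjusted p 0.0327, up to 0.91). Scaled to the total count, Taldo1 was at 0.02 on the log2 scale and not called. Under the replicate block its call was also lost (0.39, limma adjusted p 0.0926). Tkt (-0.21) and Me1 (0.67) were not called. Gpx2, the epithelial glutathione peroxidase, had 9515 and 12069 normalised counts in Control and 2624, 5350 and 3280 in Prox1 OE. It was the largest fall in the list (log2 fold change -1.58, limma adjusted p 0.00664) and fell alongside the cholangiocyte markers, whose part in it was not tested.

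Of 12 partners and regulators of NRF2, 2 were called lower by limma, a share near the 16.2% of all genes. None was called higher by limma (17.1% of all genes were), with 2 higher at an unadjusted p under 0.05 (Syvn1 and Dpp3), 0 by edgeR and 1 by DESeq2. At an unadjusted p under 0.05, 3 were lower, the called genes and Palb2 (-0.50), a partner of BRCA proteins that also binds KEAP1. Maff, a small MAF protein, fell from 680 and 972 normalised counts in Control to 342, 451 and 281 in Prox1 OE (log2 fold change -1.21, limma adjusted p 0.0101). Gsk3b, a kinase that marks NRF2 for degradation independently of KEAP1, changed by -0.51 (limma adjusted p 0.0347). Over the alternatives their adjusted p reached 0.0844 and 0.182, and without Control replicate 2 neither was called. The other small MAF genes, Mafg (0.16) and Mafk (-0.26), the competitor Bach1 (-0.30), the relative Nfe2l1 (-0.14) and the ligase genes Cul3 (-0.18), Rbx1 (0.08) and Btrc (0.28) were not called. Scaled to the total count, 7 of the 12 were called lower, as were 40.0% of all genes.

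Of 16 antioxidant enzymes kept out of the NRF2 lists, 12 were called higher, where 17.1% of all genes were, with a median log2 fold change of 0.91. Msra rose by 1.59, Gpx1 by 1.43, Sod1 by 1.32 and Cat by 1.16. None was called lower by limma, edgeR or DESeq2, and 0 were lower at an unadjusted p under 0.05. Without Control replicate 1, Gpx1, Sod1, Cat, Gpx3, Gpx4, Gss, Txn2 and Txnrd2 lost the call. Their log2 fold changes there ran from 0.41 (Gpx3) to 1.27 (Gpx1). Gss, which completes glutathione synthesis after the Gclc and Gclm step, changed by 0.56 (limma adjusted p 0.019, up to 0.487 over the alternatives), and the mitochondrial pair Txn2 and Txnrd2 by 0.86 and 0.88. Hepatocyte markers, at a median of 1.70, moved in the same direction as these lists, and their part in the counts was not tested.

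**Figure D4:**
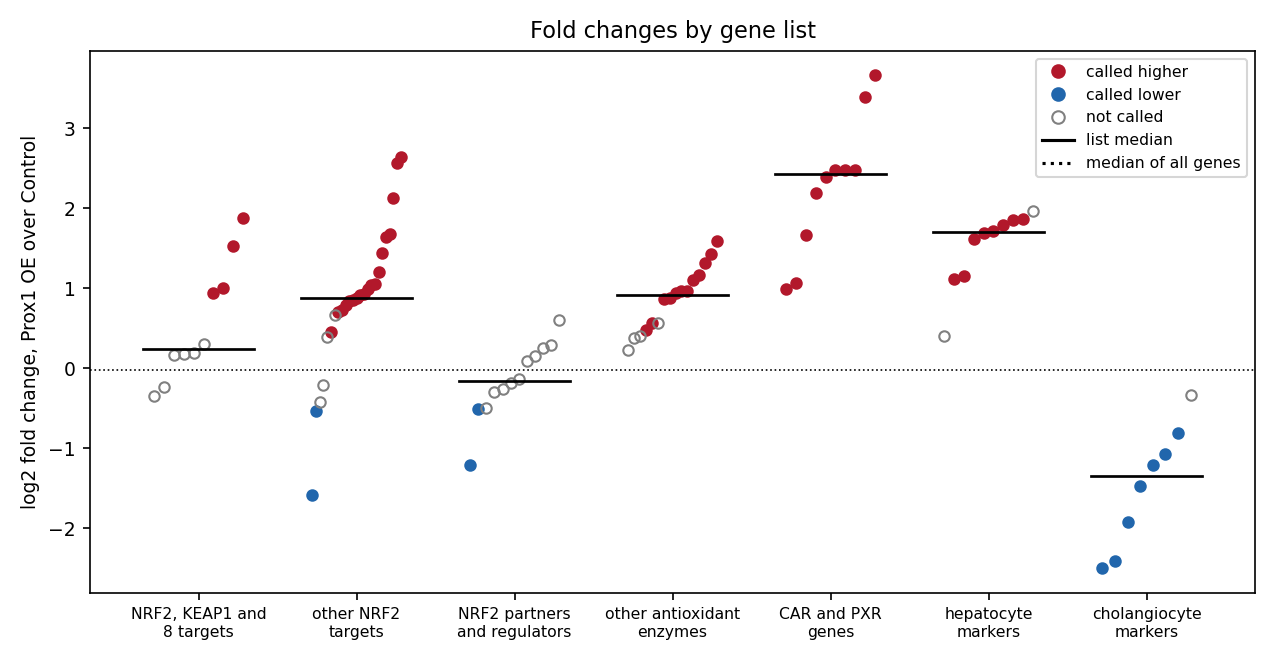
Log2 fold change of Prox1 OE over Control for every tested gene of each list, called genes filled (red higher, blue lower) and others open, with a bar at the list median and a dotted line at the median of all genes (-0.02). Further NRF2 targets (median 0.88) and other antioxidant enzymes (0.91) lie higher than the 10 genes described here (0.25). The 10 are an unlike set, as they include NRF2 (Nfe2l2, -0.23) and its inhibitor (Keap1, 0.17). Partners and regulators lie around zero (-0.16).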

How the data were processed

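Bulk RNA-seq was made by the authors with a dUTP protocol and paired reads, mapped to mm10 with STAR. The deposited table holds a signal per Ensembl gene and library, read counts divided by a DESeq2 size factor by the authors. The counting tool was not given in the sources used here. Dividing each library by its unit of 0.822 to 1.18 normalised counts per read gave whole reads, within 0.001, for 100% of values. Another deposited table holds the authors' comparison (fold changes and p-values) and was not used. All 5 columns of libraries were used.

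The test was limma 3.58.1 (R 4.3.3), two-sided and without covariates, on log2(normalised count + 1), which understates changes of low genes. Genes averaging 10 or more entered it, and the prior variance followed expression (trend). Count tests were alternatives because the deposited values are normalised: edgeR 4.0.16 and DESeq2 1.42.0 on recovered reads, for which the study used DESeq2. Others were TMM factors, the total count, other pseudocounts and filters, no trend, the replicate block and each library left out. The limma, edgeR and DESeq2 fits were run on simulated counts with few changed genes and a single dispersion. These settings differ from the tumours, so error rates in these data were not tested. Symbols and coordinates came from GENCODE (GRCm38), matching 99.5% of identifiers, and promoter windows from RefSeq.

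Named genes were the 10 members, genes of the lists given in the text, Prox1 and the 3 genes nearest to Nqo1. The members and lists were chosen with earlier results of these data known. Every replicate pair was a pair of distinct libraries (chi-square 36.2 to 115 per degree of freedom). Totals and intervals cover counting error or spread between libraries only.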

Additional observations from a re-analysis of the deposited data

How the results depend on the processing

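The 4 genes called higher stayed at 4 under each alternative except without Control replicate 1, where 3 were called (range 3 to 4 without a library). Of 150 values of single members under the alternatives, 140 kept direction and call, 5 gained a call, 1 lost it (Gclc) and 4 changed sign, these with the total count as library size: Keap1 -0.26, Gclm -0.24, Txnrd1 -0.12 and Gsr -0.26, by the shift of the median of all genes to -0.45. Members called lower, 0 in the main test, were 2 with the total count, 1 with a mean of at least 50, 1 with DESeq2 and 0 to 1 without a library.

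With the total count, 1472 genes were called higher and 6856 lower and 7 NRF2 regulators lower. DESeq2 called 1 regulator higher, and no filter, limma without trend and the replicate block each called 1 regulator lower in place of 2. Without a filter or without trend 1 further NRF2 target was lower, not 2. For these counts the cause was not tested. Without a library, genes called higher ran from 891 to 3729 and lower from 620 to 3765, further NRF2 targets from 7 to 19 higher and 1 to 2 lower, regulators from 0 to 1 higher and 0 (without Control replicate 2) to 4 (without Prox1 OE replicate 1) lower, and other antioxidant enzymes from 4 to 14 higher. The fewest calls over all genes came without Control replicate 1 and the most without Prox1 OE replicate 1. The Gclc to Gclm log2 ratio ran from 0.677 to 0.832.

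Replicate numbers are shared between groups but nothing ties them to a mouse or day, and deviations within the 2 pairs correlated at 0.137 and 0.016. The replicate block, which leaves out Prox1 OE replicate 3, called 5187 genes, 4825 of them shared, and the same 4 members. Each member had at least 711 reads in every library, and the effect of depth on the calls was not tested.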
